A study of Mus musculus with 4 samples.

Results

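PRC1.6 is a non-canonical polycomb complex that silences germ line genes, and 9 genes that encode its subunits were followed here in mouse testes: *Mga*, *Max*, *L3mbtl2*, *E2f6*, *Pcgf6*, *Rnf2*, *Ring1*, *Tfdp1* and *Cbx3*. They were found by their gene symbols, and all 9 were present among the 55820 loci of the deposited table. RNA sequencing covered whole testes of C57BL/6J males at postnatal day 10 (P10), with 2 libraries from control mice and 2 from Mps1sKO mice. In Mps1sKO mice a floxed *Mps1* gene (symbol *Ttk*, a kinase of the spindle checkpoint) is deleted by Cre from the *Stra8* promoter, which is active in germ cells from early spermatogonia onwards, so that the other cells of the testis keep the gene. The genotype of the control mice is not given beyond "control", and it is not stated whether each library came from 1 mouse, so p-values measure the spread between these libraries.

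The complex is recruited to DNA by a pair of dimers. MGA, the scaffold of the complex, pairs with MAX and binds E boxes, while E2F6 pairs with DP1, the product of *Tfdp1*, and binds E2F motifs. PCGF6 then holds a RING1 protein, either RNF2 (RING1B) or RING1 (RING1A), which monoubiquitinates histone H2A, and L3MBTL2 and CBX3 (HP1γ) bind modified histone tails. Loss of such subunits in embryonic stem cells releases genes that are otherwise used in germ cells and in meiosis, and the complex is therefore known as a block on meiotic entry that germ cells have to lift.

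The total counts per library were between 23311689 and 28607746. Mitochondrial genes took 2.52% to 3.14% of the counts. *Ttk* was at 27.9 and 32.6 CPM in control testes and at 13.03 and 12.2 CPM in Mps1sKO testes, where CPM are counts scaled to a common library size with edgeR's TMM method. It was lower by edgeR at an adjusted p of 0.0461, with a log2 difference of −1.26. Summed levels of some lists of cell type markers differed as well. The summed level of 8 general germ cell markers was 1307 and 1551 CPM in control and 1226 and 924 CPM in Mps1sKO libraries, and all 8 markers had both Mps1sKO values below both control values. For 15 spermatocyte markers the sums were 696 and 900 CPM against 586 and 487 CPM, with 14 of the 15 below. For 12 Sertoli cell markers they were 6134 and 6414 CPM against 8044 and 7324 CPM, and 5 of the 11 tested were above. Among all tested loci, 21.1% had both Mps1sKO libraries below both control libraries, and 20.3% had both above. Mean sums of Leydig, peritubular myoid, macrophage, endothelial and red blood cell markers in Mps1sKO libraries were between 95.7% and 107% of control. No marker of any list was at 0 in all libraries. By the paper's staining at P10, Mps1sKO tubules held fewer DDX4-positive, STRA8-positive and SYCP3-positive cells than control tubules. In the RNA of whole testes, fewer cells of a type and less RNA per cell cannot be told apart. The part of cell makeup in the values below was not tested.

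None of the 9 PRC1.6 genes passed the test between genotypes. With p adjusted by the Benjamini-Hochberg method over all 20561 tested loci, edgeR's quasi-likelihood test called 0 of the 9, against 0.0292% of all tested loci, and 0 of the 9 had an unadjusted p below 0.05, against 9.3% of all tested loci. DESeq2 and limma-voom also gave 0 of 9 at either threshold. DESeq2 called 0.24% of the loci it adjusted, and 3.2% of the loci it tested had an unadjusted p below 0.05. With limma-voom, 3 of 20561 loci were called, and 9.35% had an unadjusted p below 0.05. The log2 fold changes of the members (Mps1sKO relative to control) ran from −0.13 for *Tfdp1* to 0.10 for *Pcgf6*, with a median of −0.015, where the median over all tested loci was 0.00027. Of the members, 6 had a fitted value below 0, as did 49.9% of all tested loci. For 5 of the 9 both Mps1sKO libraries lay outside both control libraries, 3 below and 2 above, and 41.4% of all tested loci did so (21.1% below and 20.3% above).

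Without a call, the intervals show how large a difference in the RNA of whole testes these libraries leave room for. The difference within germ cells alone was not measured, so these bounds do not limit it. The 95% intervals of the fit for Mps1sKO relative to control reached down to 78.3% of the control level for *Tfdp1*, the lowest bound of the 9, and up to 130% for *Ring1*, the highest. All 9 intervals included no difference. The summed level of the 9 genes was 985 and 1018 CPM in control and 1017 and 940 CPM in Mps1sKO libraries, so the groups overlapped.

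*Mga*, on chromosome 2 from 119897228 to 119969581 (plus strand, GRCm38), encodes the scaffold, a factor with both a T-box and a basic helix-loop-helix domain. Control libraries held 307 and 341 CPM of it, and Mps1sKO libraries 361 and 281 CPM. The groups overlapped, since the highest and the lowest of the 4 values were both from Mps1sKO testes. edgeR placed it at −0.015 on the log2 fold change scale, with a standard error of 0.130 and an adjusted p of 0.985. The log2 difference was −0.207 without Mps1sKO replicate 1 and 0.156 without Mps1sKO replicate 2. The values are for the whole gene, so that transcripts of *Mga* were not told apart.

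*Max*, on chromosome 12 from 76937269 to 76962201 (minus strand), encodes the shared partner of MGA, MYC and MXD proteins. It had 54.4 and 52.6 CPM in control and 51.6 and 53.0 CPM in Mps1sKO libraries. These 4 values lay within a narrow range and overlapped between genotypes. Its log2 fold change by edgeR was −0.032, with standard error 0.0900 and adjusted p 0.935, and its 95% interval went from 84.6% to 113% of control. *Gm47218* overlaps *Max* on the same strand and had 51 to 59 counts per library, where *Max* had 1196 to 1517.

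*E2f6*, on chromosome 12 from 16810963 to 16839742 (plus strand), encodes an E2F protein that represses without binding pocket proteins. Its level was 85.4 and 81.7 CPM in control and 75.7 and 81.1 CPM in Mps1sKO libraries. Both Mps1sKO values were below both control values, but the higher of them was separated from the lower control value by less than the replicates of either genotype. In edgeR's fit the log2 difference was −0.091, its standard error 0.0907 and its adjusted p 0.776.

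*Tfdp1*, on chromosome 8 from 13338751 to 13378448 (plus strand), encodes the dimer partner of E2F6 and of other E2F proteins. It had 160 and 169 CPM in control and 159 and 141 CPM in Mps1sKO libraries. Mps1sKO replicate 1 was close to the lower control library, and Mps1sKO replicate 2 stood lower. edgeR placed it at −0.13 on the log2 fold change scale, with a standard error of 0.0956 and an adjusted p of 0.686. This difference was the largest in size among the members, and 45.6% of all tested loci had a smaller one. Without Mps1sKO replicate 2 it was −0.049, and without Mps1sKO replicate 1 it was −0.215.

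*Pcgf6*, on chromosome 19 from 47033617 to 47050906 (minus strand), encodes the PCGF subunit that sets this complex apart from other forms of PRC1. Its level was 47.2 and 47.0 CPM in control and 51.2 and 50.04 CPM in Mps1sKO libraries. The replicates were close to each other and both Mps1sKO libraries were higher. Its log2 fold change by edgeR was 0.10, with standard error 0.0897 and adjusted p 0.741, and a 95% interval from 93.0% to 124% of control.

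*Rnf2*, on chromosome 1 from 151458004 to 151500955 (minus strand), encodes the main ubiquitin ligase of PRC1. It had 112 and 111 CPM in control and 118 and 117 CPM in Mps1sKO libraries. The gap between genotypes was larger than that between replicates, which differed by 0.0055 and 0.0034 on the log2 scale. With the spread estimated over all loci, the log2 fold change of 0.077 had a standard error of 0.0835 (adjusted p = 0.796 from edgeR). The end of *Rnf2* overlaps *Trmt1l* on the opposite strand, which had 1603 to 1906 counts per library, where *Rnf2* had 2725 to 3206. Since it is not stated whether counting used the strand, reads from that overlap cannot be told apart. *Gm36527* overlaps *Rnf2* on the same strand and had 18 to 27 counts per library.

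*Ring1*, on chromosome 17 from 34020792 to 34024680 (minus strand), encodes the paralogous ligase. Its level was 46.4 and 39.9 CPM in control and 37.6 and 50.1 CPM in Mps1sKO libraries. As for *Mga*, the highest and the lowest values were both from Mps1sKO testes, but here Mps1sKO replicate 2 was the high one. In edgeR's fit the log2 difference was 0.026, its standard error 0.150 and its adjusted p 0.976. The difference was −0.20 without Mps1sKO replicate 2 and 0.22 without Mps1sKO replicate 1.

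*L3mbtl2*, on chromosome 15 from 81663889 to 81688315 (plus strand), encodes the subunit with MBT domains. It had 44.6 and 42.5 CPM in control and 45.2 and 41.3 CPM in Mps1sKO libraries, and the groups overlapped. edgeR placed it at −0.011 on the log2 fold change scale, with a standard error of 0.0980 and an adjusted p of 0.985. The gene overlaps *Chadl* on the opposite strand, which had 85 to 129 counts per library, where *L3mbtl2* had 1047 to 1226. It also overlaps the pseudogene *Gm18284* on the opposite strand, with 29 to 40 counts.

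*Cbx3*, on chromosome 6 from 51470360 to 51483704 (plus strand), encodes HP1γ, a protein of heterochromatin. Its level was 128 and 134 CPM in control and 118 and 125 CPM in Mps1sKO libraries. Both Mps1sKO values were below both control values, and the nearest values of the 2 genotypes were closer than the replicates of either. Its log2 fold change by edgeR was −0.11, with standard error 0.0869 and adjusted p 0.712. The table lists 8 processed pseudogenes of *Cbx3*, with at most 35 counts each in a library, so reads may be shared, and with their counts added the log2 fold change was −0.11 as well.

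**Figure D1:**
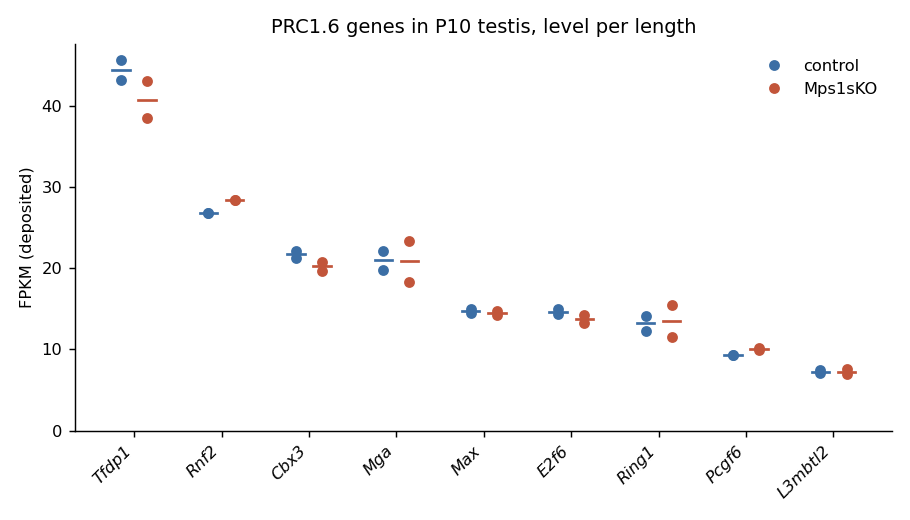
Deposited FPKM (fragments per kilobase of gene length, scaled to library size) of the 9 PRC1.6 genes on a linear axis from 0. Points are the 4 libraries and short lines the mean of 2 libraries per genotype. *Tfdp1* is highest and *L3mbtl2* lowest in both genotypes, and the 2 genotypes overlap or lie close for each gene.

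Levels of different genes were compared per length, in the deposited FPKM values. In control testes *Tfdp1* was highest, at 44.4 ± 1.79 FPKM (SD, n = 2), followed by *Rnf2* at 26.8 ± 0.0293 FPKM (SD, n = 2). *Cbx3* at 21.7 ± 0.625 and *Mga* at 20.96 ± 1.6 FPKM (SD, n = 2 each) did not differ beyond their spread. *Max* at 14.8 ± 0.328 and *E2f6* at 14.6 ± 0.446 FPKM (SD, n = 2 each) also overlapped. *Ring1* was lower than both in each control library, at 13.2 ± 1.39 FPKM (SD, n = 2), though its higher library, at 14.18 FPKM, was close to the lower one of *E2f6*, at 14.33 FPKM. *Pcgf6* and *L3mbtl2* were the lowest of the 9, with 9.30 ± 0.00507 FPKM for *Pcgf6* and 7.27 ± 0.230 FPKM for *L3mbtl2* (SD, n = 2 each). In Mps1sKO testes *Tfdp1* was again highest, at 40.7 ± 3.23 FPKM, and *L3mbtl2* lowest, at 7.25 ± 0.449 FPKM (SD, n = 2 each). The plot of FPKM by gene shows both groups side by side.

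Several subunits have paralogs that occupy the same place in other complexes, and their share of the family's summed FPKM was compared between genotypes. An exact two-sided permutation test of 2 libraries against 2 cannot give a p below 0.333, so none of these shares could pass a threshold of 0.05. *Rnf2* made up 65.4% and 68.7% of the sum of *Rnf2* and *Ring1* in control and 71.1% and 64.8% in Mps1sKO libraries, and the groups overlapped. *Pcgf6* made up 11.2% and 11.5% of the 6 PCGF genes in control and 13.4% and 12.5% in Mps1sKO libraries. The higher share goes with *Pcgf6* itself, given above, and with its paralogs. In mean FPKM, *Bmi1* was at 24.2 in control and 22.3 in Mps1sKO libraries, and *Pcgf5* at 6.92 and 5.42. *Pcgf1* and *Pcgf2* were also lower in mean FPKM, and *Pcgf3* was higher. In CPM, which are not scaled by length, the sum of the 5 other PCGF genes was 388 and 382 in control and 356 and 358 in Mps1sKO libraries.

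Among these 5, *Pcgf5* had the log2 fold change largest in size, with 85.2 and 90.8 CPM in control and 69.4 and 67.9 CPM in Mps1sKO libraries. Its log2 fold change was −0.36 (standard error 0.0894, unadjusted p = 0.00423 and adjusted p = 0.494 from edgeR), so it did not pass. *Pcgf1*, *Pcgf2* and *Bmi1* each had a log2 fold change of −0.12, and that of *Pcgf3* was 0.069.

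*Tfdp1* made up 82.7% and 83.5% of the sum of *Tfdp1* and *Tfdp2* in control and 80.9% and 79.9% in Mps1sKO libraries. *Cbx3* made up 26.7% and 26.4% of the 3 HP1 genes in control and 25.9% and 25.7% in Mps1sKO libraries. For both, the Mps1sKO shares were below the control shares without overlap (exact permutation p = 0.333, the smallest possible). *E2f6* made up 17.7% and 17.5% of the 8 E2F genes in control and 17.7% and 18.2% in Mps1sKO libraries. *L3mbtl2* made up 52.8% and 45.6% of its family of 4 in control and 45.1% and 45.6% in Mps1sKO libraries. The first control library stood apart from the others, and the nearest values were 45.61% (control) and 45.58% (Mps1sKO). The shares of *Pcgf6*, higher in Mps1sKO, and of *L3mbtl2*, lower, thus did not overlap either (exact permutation p = 0.333 each).

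**Figure D2:**
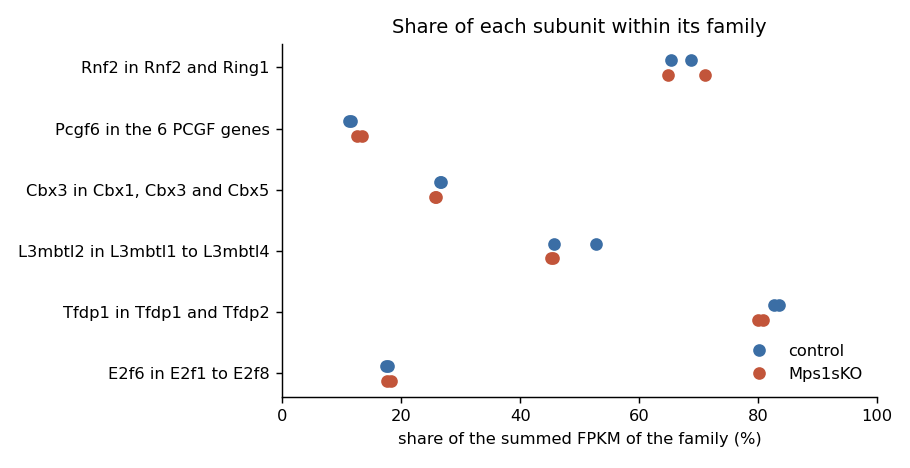
Share of each subunit in the summed FPKM of its family, in percent, for each of the 4 libraries. The shares of *Rnf2* and *E2f6* overlap between genotypes, and those of *Pcgf6* are 11.2% and 11.5% in control against 13.4% and 12.5% in Mps1sKO libraries.

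Further subunits reported for the complex were RYBP and YAF2, which bind the RING1 proteins, WDR5, the histone deacetylases HDAC1 and HDAC2, and DP2, encoded by *Tfdp2*. None of these 6 passed at an adjusted or an unadjusted p of 0.05 with edgeR. *Wdr5* had the lowest log2 fold change, −0.17 (standard error 0.0911, adjusted p = 0.604 from edgeR), with 139 and 148 CPM in control and 133 and 123 CPM in Mps1sKO libraries. *Tfdp2* had the highest, 0.13, with 127 CPM in both control libraries and 143 and 136 CPM in Mps1sKO libraries. *Hdac1* was at −0.13, *Hdac2* at −0.070, *Rybp* at 0.099 and *Yaf2* at 0.11 on the log2 fold change scale.

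In 6 related gene lists, no gene passed an adjusted p of 0.05 with edgeR, and the counts at an unadjusted p of 0.05 were as follows. Of 14 other PRC1 subunit genes, 2 were lower and 2 were higher at the unadjusted p, against 5.37% and 3.92% of all tested loci. None of 12 PRC2 genes was lower or higher at it, and 1 of 11 MYC, MXD and MLX genes of the MAX network was higher. Among 10 E2F and pocket protein genes, 1 was lower. Of 6 genes with MBT domains related to *L3mbtl2*, 1 was lower and 1 higher. Of 9 genes for HP1 paralogs and histone H3 lysine methylation, 1 was lower. The medians of these lists, between −0.21 for the MBT genes and 0.094 for the MAX network, compare with 0.00027 over all tested loci.

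Germ line genes reported to be silenced by the complex in embryonic stem cells or early embryos form the other side of its function. A list of 16 was drawn from general knowledge, with earlier results of these data known. Short promoter sequences are shown for some of them because they carry the letters that the MGA-MAX and E2F6-DP1 dimers are known to prefer. Promoter windows from RefSeq on GRCm38.p6, from 250 bases before to 50 bases after a start, were matched to all 16 genes and to all 9 members. Both strands were searched for GCGGGAA (E2F motif) and CACGTG (E box), which can overlap each other by 1 base. In the sequences, capitals mark these letters or their reverse complement, and each is written 5′ to 3′ in the direction of the gene. Those of *Sycp3* (chr10:88459369-88459568, plus strand), *Hormad1* (chr3:95559477-95559676, plus strand), *Gm4969* (chr7:19118369-19118568, minus strand) and *Smc1b* (chr15:85131965-85132064, minus strand) end before the start of the gene. Those of *Slc25a31* (chr3:40708878-40708907, plus strand), *Stag3* (chr5:138280494-138280523, plus strand) and *Max* (chr12:76962234-76962263, minus strand) are 30 bases around 1 match at or near the start.
Sycp3: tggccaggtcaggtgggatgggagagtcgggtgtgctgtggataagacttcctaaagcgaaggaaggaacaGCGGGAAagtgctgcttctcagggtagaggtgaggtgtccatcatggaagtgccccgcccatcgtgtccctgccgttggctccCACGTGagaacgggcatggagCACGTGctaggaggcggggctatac
Hormad1: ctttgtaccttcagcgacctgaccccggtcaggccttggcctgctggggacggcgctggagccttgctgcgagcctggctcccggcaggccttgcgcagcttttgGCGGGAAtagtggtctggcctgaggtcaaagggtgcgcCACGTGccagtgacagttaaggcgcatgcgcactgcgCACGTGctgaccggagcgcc
Gm4969: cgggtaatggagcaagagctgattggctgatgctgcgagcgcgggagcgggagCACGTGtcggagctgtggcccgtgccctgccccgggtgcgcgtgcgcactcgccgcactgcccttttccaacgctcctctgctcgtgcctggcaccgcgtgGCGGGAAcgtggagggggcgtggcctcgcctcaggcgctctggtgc
Smc1b: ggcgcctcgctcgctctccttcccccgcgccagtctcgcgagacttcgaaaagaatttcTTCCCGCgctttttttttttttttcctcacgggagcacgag
Slc25a31: tcagcgcccgctTTCCCGCcagggtaaagc
Stag3: ttatcccgtgccTTCCCGCgtttttttcta
Max: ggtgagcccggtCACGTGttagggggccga

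The E2F motif was present in the promoters of 9 of the 16 germ line genes, which are *Ddx4*, *Slc25a31*, *Stag3*, *Smc1b*, *Gm4969*, *Sycp3*, *Tuba3a*, *Tuba3b* and *Hormad1*, and in 5.29% of the 27025 genes with a promoter window. The E box was present in 8 of the 16 and in 8.09% of all genes. Both were present together in 6 of the 16, against 0.514% of all genes, and neither in 5, which are *Dazl*, *Tdrkh*, *Tex101*, *Stra8* and *Zcwpw1*. The list holds genes known as targets of E2F6 and MGA, so these shares describe it and are no test. Among the 9 members themselves, none had the E2F motif, and *Max* and *Tfdp1* had 1 E box each. In *Max* the E box spans the RefSeq start. A match of letters does not show binding, and these data hold no measure of binding.

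**Figure D3:**
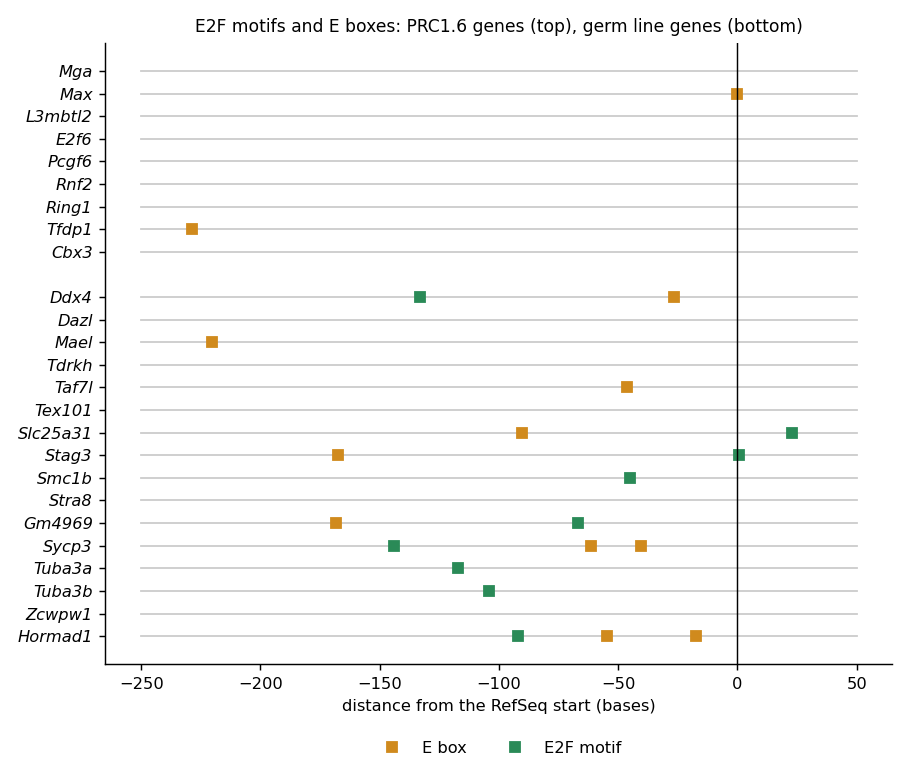
Positions of the letters GCGGGAA (E2F motif) and CACGTG (E box), on either strand, in 1 promoter window per gene, as distance in bases from the RefSeq start. The 9 PRC1.6 genes are at the top, with an E box in *Max* and *Tfdp1*, and the 16 germ line genes at the bottom, 11 of which hold at least 1 of the marked motifs.

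All 16 germ line genes had both Mps1sKO libraries below both control libraries, where 21.1% of all tested loci did. The list was chosen with earlier results of these data known, so its counts describe it and are no test. Their log2 fold changes ran from −1.09 for *Slc25a31* to −0.40 for *Dazl*, with a median of −0.58. All 16 had an unadjusted p below 0.05 from edgeR, against 5.37% of all tested loci that were lower at that threshold. With p adjusted over all tested loci, 0 of the 16 passed with edgeR, and 9 passed with DESeq2, against 0.194% of the loci with an adjusted p from DESeq2. Of the 16, 8 are also in the marker lists of germ cells, spermatocytes or differentiating spermatogonia, whose summed levels were lower in the same libraries, as given above for the first and second of these lists. The rest are germ line genes too, though they are not in these short lists. Without control replicate 1, edgeR called 13 of the 16 at an adjusted p below 0.05, and 199 of 21477 loci in all. Without control replicate 2 it called 1 of the 16 and 68 of 21324 loci, and without either Mps1sKO library it called 0 of the 16.

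The genes are given by what they do. *Slc25a31*, the germ cell ADP/ATP carrier and a classical E2F6 target, had 6.61 and 4.78 CPM in control and 2.72 and 2.61 CPM in Mps1sKO libraries. The Mps1sKO mean was 46.8% of the control mean, and edgeR gave −1.09 on the log2 fold change scale, with a standard error of 0.223 and an adjusted p of 0.494. *Gm4969*, which RefSeq lists as *Bhmg1* with the synonym *Meiosin* and which encodes the partner of STRA8 at meiotic entry, had 36.5 and 52.0 CPM in control and 27.0 and 22.3 CPM in Mps1sKO libraries, or −0.85 on the log2 fold change scale, with an adjusted p of 0.494 by edgeR and 0.0066 by DESeq2. *Tex101*, which encodes a surface protein of germ cells, had 64.3 and 77.3 CPM against 45.5 and 38.8 CPM, or −0.75 on that scale, with an adjusted p of 0.494 by edgeR and 0.00128 by DESeq2. All 3 genes were lower in each Mps1sKO library than in each control library.

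The testis tubulin genes *Tuba3a* and *Tuba3b*, further E2F6 targets, had log2 fold changes of −0.52 and −0.60. *Tuba3a* had 354 and 408 CPM in control and 271 and 262 CPM in Mps1sKO libraries, and *Tuba3b* had 236 and 295 CPM against 181 and 168 CPM. The 2 genes are near-identical paralogs, so the division of reads between them is uncertain. The cohesin subunit gene *Smc1b* had 114 and 150 CPM in control and 99.3 and 80.3 CPM in Mps1sKO libraries, a log2 fold change of −0.56.

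*Taf7l*, a germ cell form of a TFIID subunit gene, had 207 and 252 CPM in control and 164 and 146 CPM in Mps1sKO libraries, a log2 fold change of −0.56. *Mael* and *Tdrkh*, genes of the piRNA pathway, were at −0.51 and −0.54, and *Zcwpw1*, a reader of histone methylation in meiosis, was at −0.62. The meiotic genes *Stra8*, *Hormad1*, *Stag3* and *Sycp3* were at −0.79, −0.74, −0.61 and −0.53. The smallest differences were those of *Ddx4*, at −0.41, and *Dazl*, at −0.40, which are germ cell genes from before meiosis. For *Dazl* the replicates of 1 genotype differed by 0.32 and 0.48 on the log2 scale. Its log2 fold change was −0.179 without Mps1sKO replicate 2 and −0.229 without control replicate 2. Without Mps1sKO replicate 1 it was −0.657. That of *Ddx4* was −0.252 without Mps1sKO replicate 2, and that of *Smc1b* was −0.352 without control replicate 2.

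The germ line genes with and without the printed letters had medians close to each other, which was not tested. The median log2 fold change was −0.60 for the 9 genes with the E2F motif and −0.56 for the 7 without it, and it was −0.59 for the 8 with an E box and −0.58 for the 8 without.

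**Figure D4:**
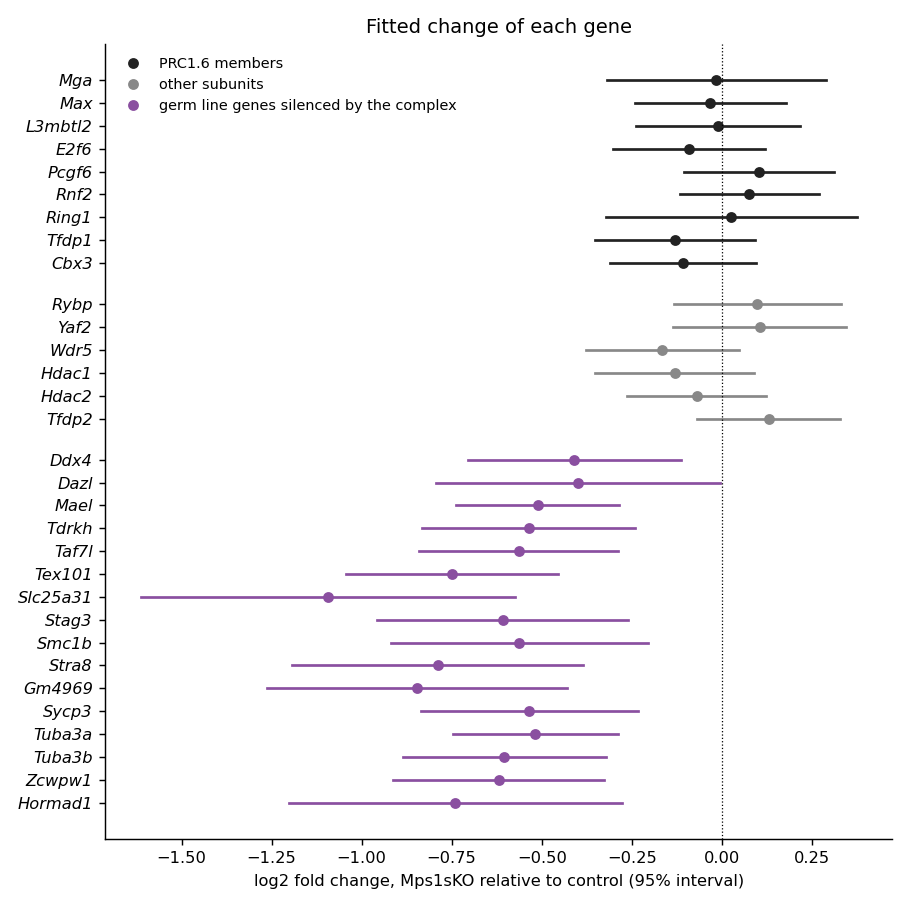
Fitted log2 fold change of Mps1sKO relative to control for each PRC1.6 gene, each further subunit and each germ line gene, with its 95% interval from edgeR's fit. The intervals of all 9 members and all 6 further subunits include 0, and the fitted values of the 16 germ line genes lie between −1.09 and −0.40.

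**Figure D5:**
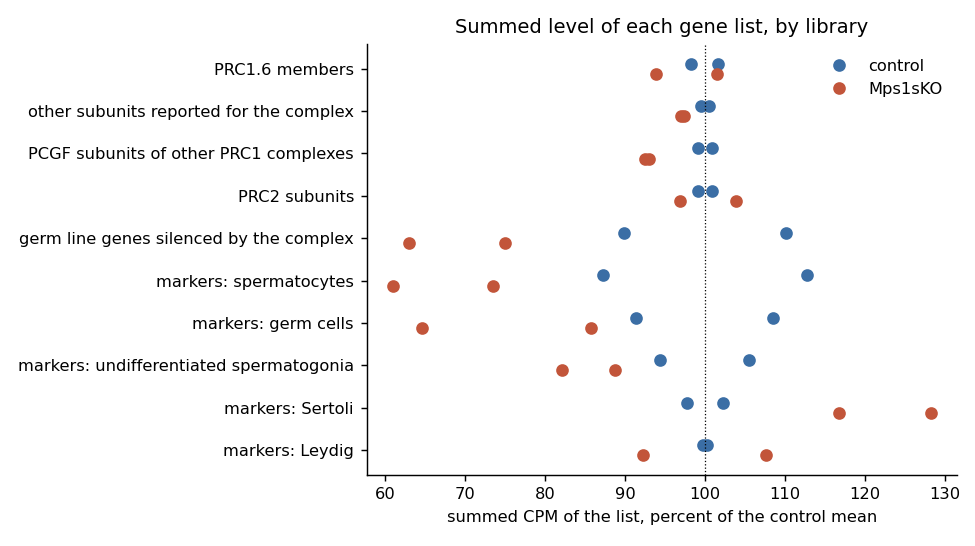
Summed CPM of each gene list in each library, as percent of the mean of the 2 control libraries. The PRC1.6 genes overlap between genotypes, the germ line and germ cell lists are lower in both Mps1sKO libraries and the Sertoli list is higher.

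The plot of summed levels sets the lists side by side. The mean of the summed CPM in Mps1sKO libraries was 97.7% of control for the 9 members, 97.2% for the 6 further subunits and 69.0% for the 16 germ line genes. It was 75.2% for the germ cell markers, 67.3% for the spermatocyte markers, 85.4% for 12 markers of undifferentiated spermatogonia and 122% for the Sertoli markers. Of the 12 markers of undifferentiated spermatogonia, 7 had a fitted log2 fold change below 0 and 5 above it. The difference between lists was not tested.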

How the data were processed

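Whole testes at P10 were sequenced in 4 libraries, and the labels' genotype set the groups. The authors made NEBNext Ultra libraries for paired-end sequencing on a NovaSeq, and the submitters' processing notes name HISAT2 2.0.5, featureCounts, DESeq2 1.16.1 and mm10. Strandedness and annotation are not given in the sources used here. The authors deposited raw counts per gene without normalization, and FPKM values per kilobase of a listed gene length. All 55536 annotated identifiers had the coordinates and strand of GENCODE M21 (GRCm38), and 284 loci had no identifier.

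The deposited counts went into edgeR 4.0.16 (R 4.3.3, filterByExpr, TMM, quasi-likelihood F test, two-sided), which kept 20561 loci. P-values were adjusted over all of these by the Benjamini-Hochberg method. Standard errors were derived as the size of the log2 fold change divided by the square root of the F statistic. The 95% intervals use them with a t quantile. FPKM served only for levels per length and shares. A count of 0 would allow up to 3 counts, 0.105 to 0.129 CPM, which covers counting error only. Libraries of the same genotype varied beyond counting error, with chi-square per degree of freedom of 8.49 (control) and 11.6 (Mps1sKO). Alternatives were DESeq2 1.42.0, limma-voom 3.58.1, other scalings and filters, a robust dispersion, a replicate block and each library left out. The fit was also run on simulated data with known changes, all larger than those of the members. That check does not show how often differences as small as theirs would be found.

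The members and lists were chosen with earlier results of these data known. Genes named with values were the members, *Ttk*, the further subunits, the other PCGF genes, the germ line genes and loci overlapping a member. Any gene of another list with an adjusted p below 0.05 was to be named too. Pseudogenes of *Cbx3* are given by their number and highest count. The other lists are given by counts and medians. Promoter windows came from RefSeq (GRCm38.p6), matched by symbol or synonym.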

Additional observations from a re-analysis of the deposited data

How the results depend on the processing

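The counts of 0 members at an adjusted and at an unadjusted p below 0.05 were 0 in all 13 alternatives, 4 of which left out 1 library each. The median log2 fold change of the members was −0.036 with library size only and lay between −0.057 and −0.0092 with 1 library left out. With 1 library left out, the log2 fold change of *Mga* lay between −0.21 and 0.16, that of *L3mbtl2* between −0.076 and 0.054 and that of *Ring1* between −0.20 and 0.22, so their direction rests on single libraries. The other 6 members kept their direction in all 13 alternatives, and so did all 16 germ line genes. The number of loci called among all was 6, and it was 390 without a filter on low counts, 3 with at least 10 counts in every library, 37 with DESeq2, 3 with limma-voom and 17 to 199 with 1 library left out, where the lone library of a group is assumed to vary like the other group. The cause of these different numbers was not tested. They are out of 20561 loci in the main fit and with limma-voom, and out of 35262 without the filter. With at least 10 counts in every library 18818 loci were tested, and DESeq2 adjusted 15436. With 1 library left out, 21324 to 21497 loci were tested. Of the loci called, 251 were lower without the filter and 30 were lower with DESeq2. Of the germ line genes, 16 had an adjusted p below 0.05 without the filter, 9 with DESeq2 and 0 to 13 with 1 library left out, and their median log2 fold change lay between −0.75 and −0.42 with 1 library left out. These alternatives for the germ line genes were chosen after seeing the data.

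With the replicate number as a block, 2 loci were called in all, and 0 members and 0 germ line genes. All germ line genes but *Dazl* had an unadjusted p below 0.05 from edgeR under the block, against 5.05% of all tested loci in either direction. The labels do not say what the numbers share, and the deviations of same-numbered libraries correlated at −0.238 over 20561 loci. A crossed pairing of the numbers, added after seeing the data, called 550 loci, 0 members and 16 germ line genes. The shares between paralogs are the same in FPKM and in TMM-normalized counts per kilobase. The members had between 871 and 9837 counts per library.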
